A study of Bos taurus with 12 samples.

Results

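Chemokines of the bovine mammary gland were compared between intralobular stroma and epithelium of the same animals. The genes were CXCL12, CCL2, CCL8, CCL14, CXCL2, CXCL13, CXCL16, CCL21, CCL5 and CXCL8, and every probe set whose single gene symbol was one of these was taken. This gave 12 probe sets of 10 genes, of 24128 probe sets and 9155 genes with a probe set of their own, with 2 probe sets each for CCL2 and CXCL16 and 1 for each of the other 8 genes. Stroma and epithelium were captured by laser from mammary biopsies of 6 dry Holstein cows 3 weeks before calving, one capture of each tissue per cow, and amplified RNA from every capture went onto a Bovine GeneChip of its own. All explants, of both tissues, had been cultured for 2 h with hydrocortisone, insulin and BrdU, a label for cells that copy their DNA, and no uncultured tissue was compared. Stromal captures were meant to be rich in fibroblasts, vessels and visible immune cells were avoided, and lysates of more slides were pooled for a stromal than for an epithelial sample. The labels gave cow 1 a lactation number of 3, cow 2 one of 2 and the other 4 cows one of 1. The methods, by contrast, describe the animals as multiparous. Values are log2 RMA values, the array signal after background correction and quantile normalization, and a difference is stroma minus epithelium of the same cow, so that 1 is a doubling.

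Chemokines are small secreted proteins that bind to matrix and cell surface sugars and draw cells along their gradient through receptors coupled to G proteins. CC chemokines act mainly on monocytes, lymphocytes and eosinophils, and the CXC chemokines that carry a glutamate-leucine-arginine motif act mainly on neutrophils. In the mammary gland, macrophages, lymphocytes and plasma cells settle in the stroma around ducts and alveoli, and in mouse, antibody-secreting cells reach the lactating gland in part through a chemokine.

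Of the 10 genes, CXCL12, CCL2 and CCL14 were higher in stroma on every probe set, CXCL16 was higher in stroma on 1 of its 2 probe sets, and none was higher in epithelium. In a fit of all 24016 probe sets other than controls, 5 of the 12 chemokine probe sets were higher in stroma (limma with cow as a block, adjusted p under 0.05) and 0 were higher in epithelium, against 1.76% and 1.62% of all probe sets. Every stromal array lay above every epithelial array for 4 of the 12, the probe sets of CXCL12, CCL2 and CCL14, and this held for 2.09% of all probe sets. The opposite held for 0 of the 12 and for 1.34% of all. The median difference of the 12 was 1.90, against 0.07 over all probe sets. Members were chosen with earlier results of these arrays known. The paper lists CCL2, CCL8, CCL14, CCL21, CXCL2, CXCL13 and CXCL16 as higher in stroma. An excess toward stroma was thus built into the choice, and nothing is read from these shares about the members as a set. Tests below were read from the 10000 brightest probe sets, of which 4.54% were higher in stroma and 4.77% in epithelium (454 and 477 as deposited, 515 and 360 after centring on the median). All chemokine probe sets but those of CXCL13 and CCL21 were among these, so 10 of 12 passed this filter. Stromal signal helped to bring some of them in, and no count over the 10 is read. Because captures are mixtures, more cells of a type and more RNA per cell cannot be told apart in any of these differences.

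**Figure D1:**
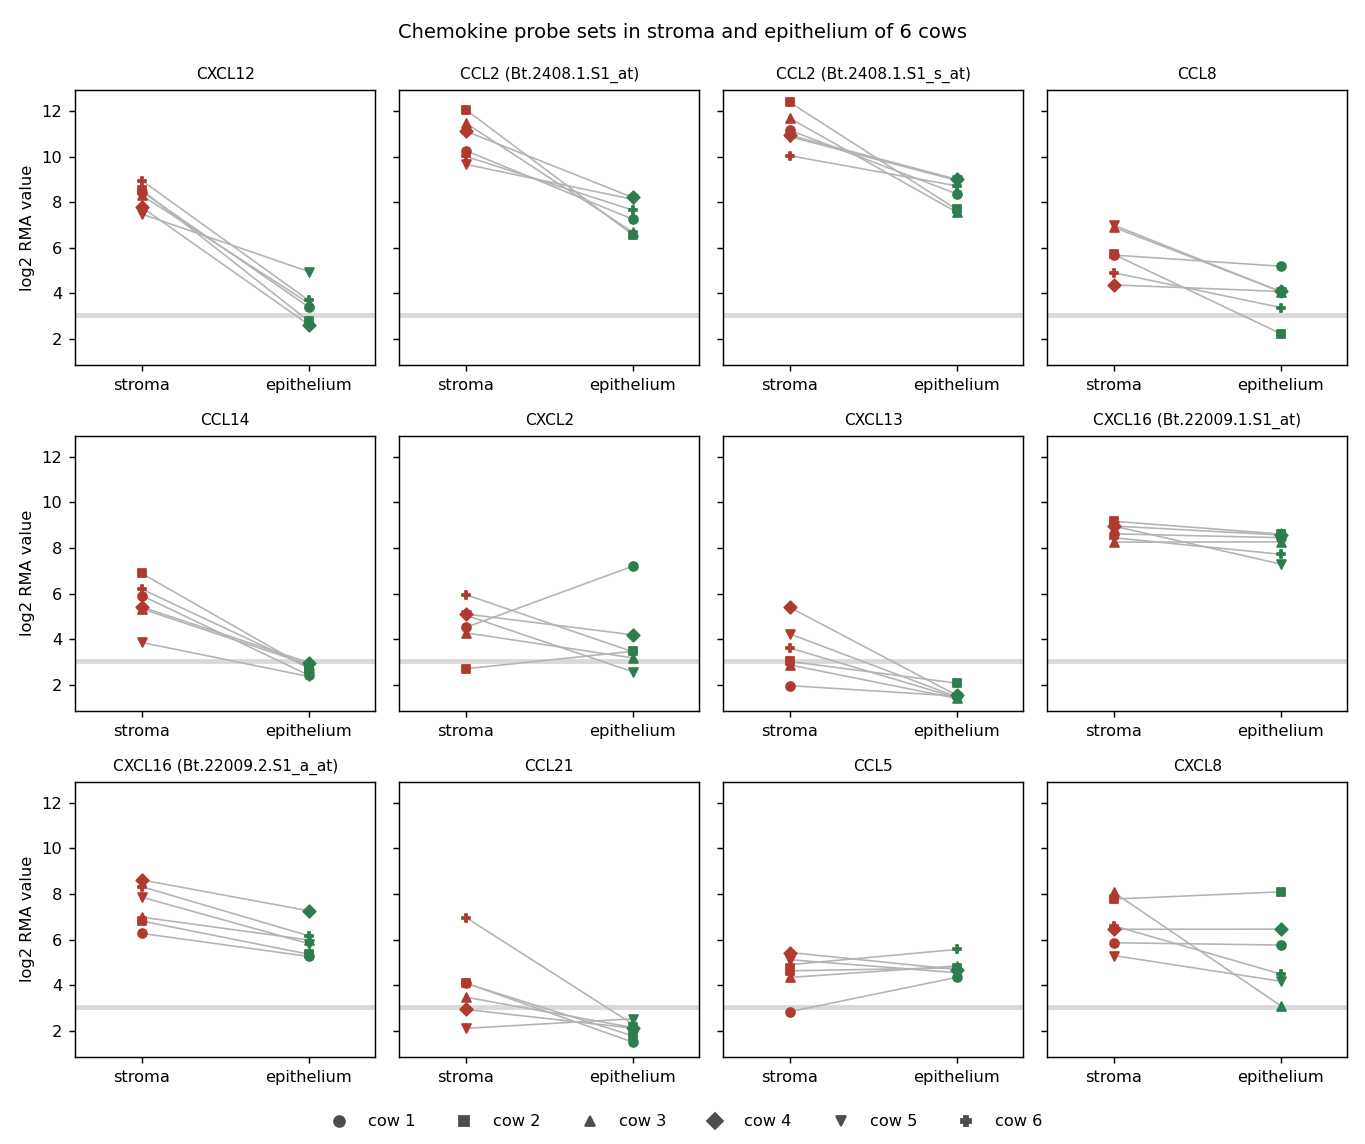
Log2 RMA value (vertical axis) of each of the 12 chemokine probe sets in stroma and epithelium, with 1 line per cow, a marker shape per cow and the range of the array medians as a grey band. Stroma was higher in all 6 cows for CXCL12, CCL2, CCL14, CCL8, CXCL13 and the dimmer CXCL16 probe set, and the tissues did not overlap for CXCL12, CCL2 and CCL14.

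CXCL12 binds CXCR4 and ACKR3, holds plasma cells and progenitor cells in their niches, and is made by fibroblasts and other stromal cells. It was the chemokine with the largest difference between the tissues. Its stromal values ran from 7.48 to 8.95 with a median of 8.38, against 2.63 to 4.96 with a median of 3.49 in epithelium. The lowest stromal array thus lay 2.52 above the highest epithelial array, and both were from cow 5. The mean was 8.25 ± 0.54 in stroma and 3.51 ± 0.83 in epithelium (SD, n = 6 each), a difference of 4.74 (SE 0.47), or 26.7-fold (limma adjusted p = 0.000501). By cow it was 5.06, 5.75, 4.72, 5.14, 2.52 and 5.25 in cows 1 to 6. Leaving out any 1 cow kept the difference between 4.54 and 5.18. CXCL12 was above the array median on 4 of 6 epithelial arrays, so its 26.7-fold depends on the background.

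The epithelial arrays had nearly the same order for CXCL12 as for fibroblast markers. Epithelium of cow 5 had the highest CXCL12, 4.96, and the highest mean of 10 fibroblast markers, 5.55, and epithelium of cow 6 was second in both, at 3.69 and 4.73. Epithelium of cow 4 was lowest in both, at 2.63 and 3.18. In stroma the fibroblast mean was 8.06 to 8.76, and 8 of 10 fibroblast markers were higher in stroma in the fit of all probe sets, among them the collagens COL3A1 (11.78 in stroma, 5.72 in epithelium) and COL1A1 (11.40 in stroma, 5.98 in epithelium). The part of stromal RNA in epithelial captures in the CXCL12 values was not tested.

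CCL2 and CCL8 are relatives that draw monocytes, in human through CCR2, and CCL8 also acts through other receptors. CCL2 was bright in both tissues and brighter in stroma. On its brighter probe set, which can also match transcripts of similar sequence, stroma ran from 10.03 to 12.37 with a median of 11.04, and epithelium ran from 7.56 to 9.0 with a median of 8.54. The difference was 2.79 (SE 0.51), or 6.93-fold (adjusted p = 0.0108). The second probe set ran from 9.66 to 12.05 in stroma with a median of 10.68, against 6.57 to 8.21 in epithelium with a median of 7.45, a difference of 3.34 (SE 0.55), or 10.2-fold (adjusted p = 0.00648). Neither probe set overlapped between the tissues, and all 6 cows were higher in stroma on both. The size varied between cows, from 1.32 in cow 6 to 4.70 in cow 2 on the brighter probe set. Cows 2 and 3 had the 2 largest differences on both probe sets, with the 2 lowest epithelial values and the 2 highest stromal values.

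CCL8 had stromal values of 4.37 to 6.99 with a median of 5.69, and epithelial values of 2.24 to 5.19 with a median of 4.08. Stroma was higher in all 6 cows, although the tissues overlapped, and the difference was 0.49 and 0.29 in cows 1 and 4 and at least 1.52 in the other 4 cows. The mean difference was 1.92 (SE 0.52, 95% interval 0.75 to 3.08), or 3.77-fold, and it did not pass the threshold (adjusted p = 0.0514). It passed when cow 4 was left out (adjusted p = 0.0483). It also passed with the cow block dropped or made random, after centring, after renewed quantile normalization and with probe sets averaged by gene (adjusted p = 0.0326 to 0.0449). The call thus depended on the setting. The tissue differences of CCL2 and CCL8 were apart by 0.88 (95% interval -0.42 to 2.17), larger for CCL2 in 4 of 6 cows (exact sign-flip permutation, two-sided p = 0.125, adjusted p = 0.167 over 4 pairs of chemokines). CCL8 and CCL2 lie close together in the ARS-UCD2.0 annotation, with 1 protein-coding gene between them.

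CCL14, known in human as a chemokine present in plasma that becomes active after cleavage, lay above the array medians in stroma alone. Its stromal values were 3.86 to 6.89 with a median of 5.67, all above the median of their array. Its epithelial values were 2.37 to 2.98 with a median of 2.74, all below the median of their array. The mean difference was 2.91 (SE 0.43), or 7.52-fold, a fold that depends on the background since the epithelial mean was below the array medians (adjusted p = 0.00379). The stromal value was lowest in cow 5, at 3.86, as was the difference, at 1.49, and the other 5 cows differed by 2.44 to 4.17. CCL14 and CCL5 have 1 protein-coding gene between them in the annotation, and CCL5 did not share the pattern of CCL14.

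CCL5 draws T cells and monocytes and is made by T and NK cells. It had stromal values of 2.85 to 5.44 with a median of 4.77, against 4.35 to 5.57 with a median of 4.73 in epithelium. The tissues overlapped almost wholly, and stroma was higher in 2 of 6 cows. The difference was -0.25 (SE 0.40, 95% interval -1.16 to 0.66, adjusted p = 0.753), and its sign turned to 0.0027 when cow 1 was left out, whose stroma had the lowest value. T and NK cell markers were likewise close in the tissues, at 3.20 to 3.97 in stroma and 2.95 to 3.72 in epithelium over 10 markers, with 0 of 10 called in either direction in the fit of all probe sets. CD3E, a part of the T cell receptor complex, averaged 5.91 in stroma and 4.98 in epithelium (adjusted p = 0.317), and CD2, an adhesion molecule of T and NK cells, averaged 5.40 in stroma and 5.80 in epithelium (adjusted p = 0.70).

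CCL21 guides lymphocytes and dendritic cells through CCR7 and is made by lymphatic endothelium and lymph node stroma. It was dim, with stromal values of 2.11 to 6.97 and a median of 3.78, against 1.51 to 2.53 and a median of 2.14 in epithelium. Stroma was above the array median in 4 of 6 cows and epithelium in 0 of 6. The difference of 1.88 (SE 0.61, 95% interval 0.44 to 3.32) did not pass in the fit of all probe sets (adjusted p = 0.181), and by cow it ran from -0.42 in cow 5 to 4.67 in cow 6. Stroma of cow 6 had the highest CCL21, 6.97, and the lowest mean of 3 lymphatic endothelium markers, 2.76, against 3.86 to 4.93 in stroma of the other 5 cows. The same markers averaged 1.88 to 2.58 in epithelium, and PDPN, a membrane protein of lymphatic endothelium and some fibroblasts, was higher in stroma (5.69 against 2.40 in epithelium, adjusted p = 0.0117), while LYVE1, a hyaluronan receptor of lymphatic endothelium, did not pass (3.78 against 1.64, adjusted p = 0.0980). The gap between the tissue differences of CCL21 and CCL5 was 2.13 (95% interval -0.37 to 4.62, larger for CCL21 in 5 of 6 cows, exact p = 0.0938, adjusted p = 0.167).

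CXCL13 draws B cells through CXCR5 and is made by stromal and dendritic cells of lymphoid follicles. It was dim, with stromal values of 1.97 to 5.40 and a median of 3.33, above the array median in 3 of 6 cows. Epithelial values were 1.41 to 2.08 with a median of 1.50, below the array median in all 6 cows. Stroma was higher in all 6 cows by 0.46 to 3.85, with a mean difference of 1.94 (SE 0.45, 95% interval 0.88 to 3.01). This did not pass in the fit of all probe sets with cow as a block (adjusted p = 0.0758) and passed without that block (adjusted p = 0.0375). The mean of B and plasma cell markers was higher in stroma of all 6 cows, at 5.03 to 6.71 in stroma against 2.63 to 3.86 in epithelium over 6 markers. JCHAIN, which links secreted antibodies, and IGHM, the heavy chain of IgM, were the only 2 of the 6 to pass, at 11.35 and 11.92 in stroma against 5.07 and 4.35 in epithelium (adjusted p = 0.000352 and 0.000227). The B cell markers CD79A (difference 1.19, adjusted p = 0.447) and MS4A1 (difference 0.28, both tissues below the array medians) did not pass. The receptor CXCR5 itself was not above the array medians on average in either tissue (2.77 in stroma, 2.88 in epithelium).

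CXCL16 is a chemokine anchored in the membrane that ADAM10 can shed and that draws T and NK cells through CXCR6. Its probe sets disagreed. The brighter one ran from 8.26 to 9.18 in stroma with a median of 8.79, against 7.30 to 8.61 in epithelium with a median of 8.37, with overlap and a difference of 0.58 (SE 0.36, 95% interval -0.23 to 1.39, adjusted p = 0.366). The dimmer one ran from 6.28 to 8.62 in stroma with a median of 7.42, against 5.26 to 7.27 in epithelium with a median of 5.91. Stroma was higher there in all 6 cows, by 0.99 to 2.15, although the tissues overlapped across cows. The mean difference was 1.50 (SE 0.34), or 2.83-fold (adjusted p = 0.0276), and it missed the threshold when any one of cows 1, 2, 4, 5 and 6 was left out (adjusted p = 0.0590 to 0.0754) and without the cow block (adjusted p = 0.0693). The difference was larger on the dimmer than on the brighter CXCL16 probe set in all 6 cows, by 0.92 ± 0.34 (SD, n = 6, exact sign-flip permutation p = 0.0312, the smallest possible with 6 cows). For CCL2 the dimmer probe set had the larger difference in 5 of 6 cows, by 0.55 ± 0.54 (exact p = 0.0938), and both probe sets passed.

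**Figure D2:**
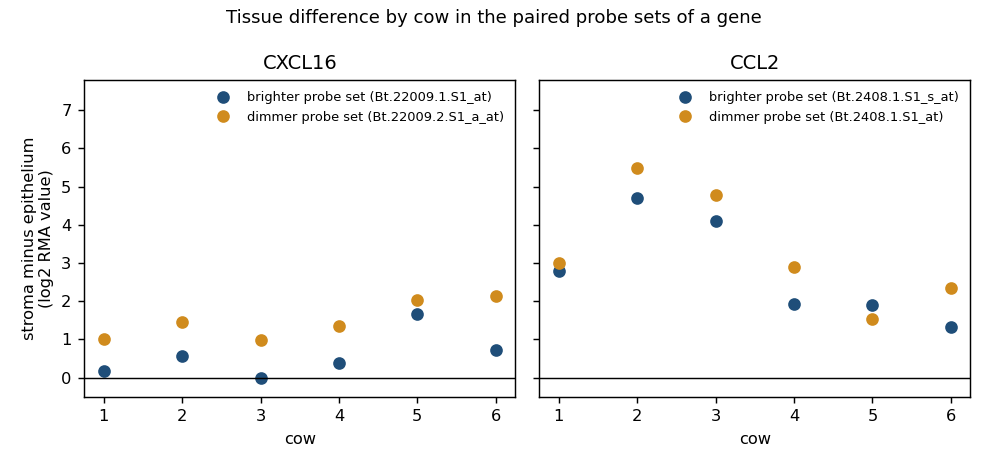
Stroma minus epithelium in log2 RMA value (vertical axis) by cow (horizontal axis) for the brighter and the dimmer probe set of CXCL16 and of CCL2. The CXCL16 probe sets were apart in every cow, with means of 0.58 and 1.50, and cow 3 was at -0.01 on the brighter one, whereas both CCL2 probe sets were above 1 in every cow.

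CXCL12 and CXCL16, both CXC chemokines without the neutrophil motif, differed in their tissue contrast. On the brightest probe set of each, the difference was larger for CXCL12 in 6 of 6 cows, by 4.16 (95% interval 2.44 to 5.87, exact p = 0.0312, again the smallest possible, and adjusted p = 0.125 over 4 pairs). The adjusted p of this pair did not pass the threshold.

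CXCL8 and CXCL2 carry the neutrophil motif and act through CXCR2, and CXCL8 also acts through CXCR1. For both, single cows differed in the sign of the tissue difference. CXCL8 ran from 5.30 to 8.07 in stroma with a median of 6.53, against 3.10 to 8.10 in epithelium with a median of 5.13. Stroma was higher in 4 of 6 cows, and the difference was 4.97 in cow 3, 2.11 in cow 6, 1.13 in cow 5 and within 0.32 of zero in cows 1, 2 and 4. The mean was 1.33 (SE 0.69, 95% interval -0.22 to 2.89, adjusted p = 0.280), and without cow 3 it was 0.60.

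CXCL2 ran from 2.71 to 5.96 in stroma with a median of 4.79, against 2.58 to 7.21 in epithelium with a median of 3.47. The highest value of either tissue was the epithelium of cow 1, at 7.21, against 4.20 in the next epithelium. The difference was -2.68 in cow 1 and -0.76 in cow 2, and 0.91 to 2.50 in the other 4 cows. Cows 1 and 2 had lactation numbers of 3 and 2, and the other 4 cows had 1. The part of lactation number in the CXCL2 difference was not tested. The mean was 0.59 (SE 0.69, 95% interval -0.97 to 2.15, adjusted p = 0.651), 1.24 without cow 1 and -0.36 without cows 5 and 6. The paper lists CXCL2 as higher in stroma, with tissue alone in its model and an unadjusted threshold. The FDR it gives for CXCL2 is also under 0.05. Here the probe set annotated to CXCL2 did not pass without the cow block either (limma adjusted p = 0.678). That probe set was 1.51-fold higher in stroma, and a probe set annotated to GRO1, described below, was 7.37-fold higher (limma adjusted p = 0.0440). The fold change listed in the paper for CXCL2 lies just below that of this GRO1 probe set and far from that of the probe set annotated to CXCL2. Its listed fold changes of CCL14, CCL8, CCL21 and CXCL13 likewise lie just below those found here. By size, the CXCL2 of the paper thus appears to be this GRO1 probe set. The tissue differences of CXCL8 and CXCL2 were apart by 0.74 (95% interval -1.48 to 2.97), larger for CXCL8 in 3 of 6 cows (exact p = 0.438, adjusted p = 0.438). CXCL8 and CXCL2 have 4 protein-coding genes between them in the annotation. Neutrophil markers averaged 2.62 to 3.75 in stroma and 2.63 to 3.77 in epithelium over 6 markers, near the array medians of 2.95 to 3.08, and S100A9, a calcium-binding protein abundant in neutrophils, averaged 5.97 in stroma and 5.45 in epithelium (adjusted p = 0.431).

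**Figure D3:**
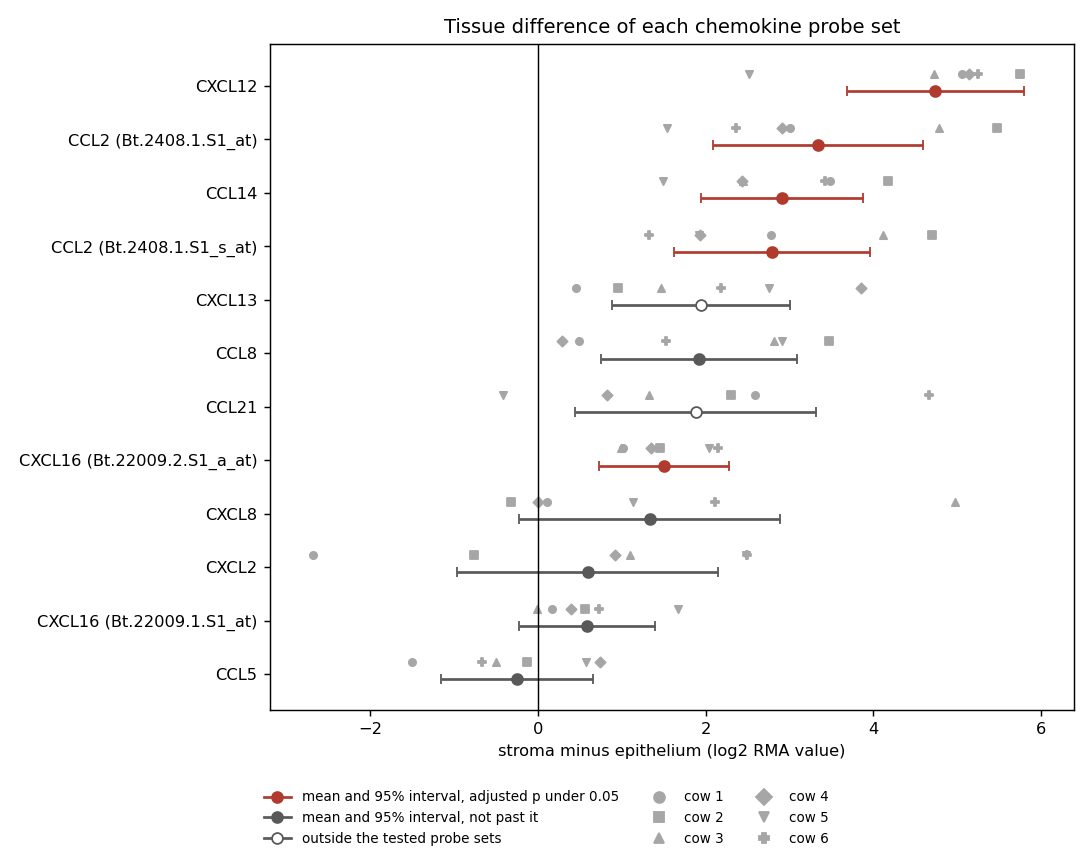
Stroma minus epithelium in log2 RMA value (horizontal axis) of each chemokine probe set, as the limma mean with its 95% interval over 6 cows and the 6 single cows above it in grey. The intervals of CXCL12, CCL2 and CCL14 start at 1.63 or higher, while those of CXCL8, CXCL2, CCL5 and the brighter CXCL16 probe set include 0.

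The stromal captures also differed among themselves. Polyadenylated control RNAs, added to every sample by the study, were brightest in stroma of cows 4, 5 and 6, at 9.11 to 10.99, against 4.02 to 7.21 in stroma of the other 3 cows and 2.96 to 6.68 in epithelium. These 3 stromal arrays were the 3 highest stromal arrays for 4 of the 12 chemokine probe sets and for 9.14% of all probe sets, and the 3 lowest for 1 of the 12 and 5.6% of all. They gave 3.62 to 5.40 for CXCL13, against 1.97 to 3.03 in the other 3 stromal arrays. They gave 5.06 to 5.96 for CXCL2, against 2.71 to 4.52 in the other 3. The other pair was CCL5 and the dimmer CXCL16 probe set, at 4.90 to 5.44 for CCL5 and 7.86 to 8.62 for CXCL16, against 2.85 to 4.64 and 6.28 to 6.99 in the other 3 stromal arrays. The brighter CCL2 probe set was lowest in the same 3 arrays, at 10.03 to 10.93, against 11.15 to 12.37. The mean of 9 blood endothelium markers was lower in them too, at 4.82 to 5.32, against 6.35 to 6.87. The part of control RNA and of captured vessels in these spreads was not tested. With cows 5 and 6 left out, CXCL12, CCL14 and both CCL2 probe sets still passed, and the dimmer CXCL16 probe set did not (difference 1.20, adjusted p = 0.141).

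None of the receptors measured passed the threshold. CXCR4, the receptor of CXCL12, averaged 5.18 ± 1.82 in stroma and 4.07 ± 0.52 in epithelium (difference 1.11, SE 0.52, adjusted p = 0.238), with stroma higher in 5 of 6 cows. ACKR3, which removes CXCL12, was near the array median in stroma (2.97) and below it in epithelium (2.30). CXCR6, the receptor of CXCL16, averaged 6.21 ± 2.27 in stroma and 3.70 ± 1.48 in epithelium, a difference of 2.51 with an SE of 1.12 (adjusted p = 0.218), and its stromal arrays spread from 2.52 to 9.07. ACKR1, which carries many inflammatory chemokines on the endothelium of venules, averaged 4.74 ± 1.91 in stroma and 2.20 ± 0.25 in epithelium, higher in stroma of 6 of 6 cows and not past the threshold in the fit of all probe sets (difference 2.54, adjusted p = 0.123). CXCR1 was below the array medians in both tissues, at 1.99 in stroma and 1.67 in epithelium. CCR1, CCR2, CCR7 and CXCR2 had no probe set annotated to them alone and were not analysed here.

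Across the wider chemokine system, 71 other genes were listed as ligands, receptors, atypical receptors, genes that cleave or bind chemokines, or signalling genes behind the receptors. Of these, 44 had a probe set of their own and 18 were tested by their brightest probe set. In the fit of all probe sets, 2 of the 44, MMP2 and GNAI2, were higher in stroma and 0 in epithelium, against 2.46% and 2.18% of 9155 genes, and 9 had an unadjusted p under 0.05, as had 1884 of the 9155. Of the 18 genes bright enough to be tested, 3 were higher in stroma and 0 in epithelium (4.49% and 4.62% of 5212 genes tested). Stromal signal helped to bring RGS16 and MMP2 into this count, which is not read further. By list, the 3 were 1 of 2 cleavage and binding genes and 2 of 9 signalling genes, with 0 of 5 other ligands, 0 of 2 receptors and no tested atypical receptor.

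MMP2, a matrix protease that cleaves and inactivates CXCL12 among other substrates, was high in stroma alone. It ran from 7.90 to 9.18 in stroma and 2.15 to 4.66 in epithelium without overlap, a difference of 5.25 (SE 0.47, adjusted p = 0.000345). It was above the array median on 2 of 6 epithelial arrays, so its 38.1-fold depends on the background. GNAI2, the inhibitory G protein subunit through which chemokine receptors signal in leukocytes, averaged 8.43 ± 0.75 in stroma and 6.38 ± 1.12 in epithelium (difference 2.05, adjusted p = 0.0231). RGS16, which shortens such G protein signals, averaged 5.20 ± 1.93 in stroma and 2.31 ± 0.56 in epithelium (difference 2.89, adjusted p = 0.0382). Its epithelial mean lay below the array medians, and in the fit of all probe sets it did not pass (adjusted p = 0.0980), while its other 2 probe sets, both outside those tested, differed by 0.35 and 0.42. ADAM10, the sheddase of CXCL16, went the other way in all 6 cows without passing, at 6.28 ± 1.00 in stroma and 7.69 ± 0.60 in epithelium (difference -1.41, adjusted p = 0.0842). Only MMP2 of the 3 genes called kept its call without cow 2.

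Among the other ligands, the probe sets of GRO1, a symbol for which the reference lists CXCL1 as a synonym, disagreed in direction. The brightest gave 8.97 ± 0.53 in stroma and 9.36 ± 1.44 in epithelium (difference -0.39, adjusted p = 0.673). Another gave 9.47 ± 0.43 in stroma and 6.59 ± 2.31 in epithelium without overlap (difference 2.88, SE 0.74, adjusted p = 0.0440). The remaining 2, outside those tested, were higher in stroma of all 6 cows by 1.49 and 1.22 on average without passing (adjusted p = 0.163 and 0.140), so 3 of 4 lay toward stroma. GRO1, CXCL2 and CXCL3 are close relatives, and cross-hybridization between their probe sets was not tested. CXCL5, another neutrophil chemokine, chosen for mention after its values were seen, did not overlap between the tissues, at 2.64 to 6.42 in stroma and 1.07 to 2.40 in epithelium, and was just short of the threshold in the fit of all probe sets (difference 2.58, adjusted p = 0.0505). CCL28, a mucosal chemokine that draws antibody-secreting cells to the mammary gland in mouse, also chosen after its values were seen, was the ligand furthest toward epithelium, at 2.18 ± 0.99 in stroma and 4.82 ± 1.19 in epithelium (difference -2.64, SE 0.66, adjusted p = 0.0970).

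**Figure D4:**
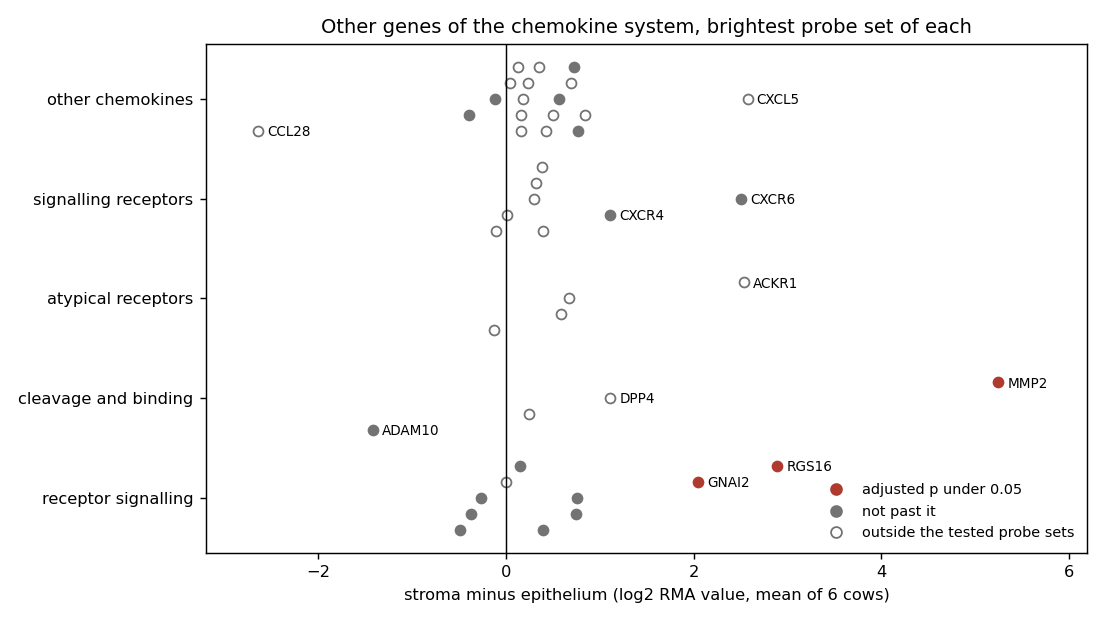
Mean stroma minus epithelium in log2 RMA value (horizontal axis) of the brightest probe set of 44 other chemokine system genes, in rows by list, with genes past the threshold in red and genes outside those tested as open circles. MMP2 at 5.25, RGS16 at 2.89 and GNAI2 at 2.05 are the genes past the threshold, and CCL28 at -2.64 lies furthest toward epithelium.

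The tested genes whose brightest probe set followed each chemokine most closely over the 12 arrays were found by Pearson correlation, a description in which genes with a large tissue difference match each other and in which arrays share cows and control RNA levels. CXCL12 was matched by SPARC (r = 0.985), FBLN5 (r = 0.985) and FBLN1 (r = 0.983), all of them extracellular matrix proteins. CCL2 was matched by DCLK1 (r = 0.944), COL4A1 (r = 0.941) and CH25H (r = 0.940), and CCL14 by ADGRD1 (r = 0.963), EFEMP1 (r = 0.956) and ATP13A3 (r = 0.953). The matches were looser for CCL8, led by MAEA (r = 0.927), SIRT1 (r = 0.885) and ASPH (r = 0.866). CXCL16 had PFKFB3 (r = 0.911), ELMO2 (r = 0.864) and HYPK (r = 0.836). For CXCL8 the closest were PELI1 (r = 0.874), E2F6 (r = 0.807) and RASD1 (r = 0.80), for CCL5 COQ8A (r = 0.835), TRAF3 (r = 0.823) and GOLM2 (r = 0.812), and for CXCL2 SERTAD1 (r = 0.802), POLG (r = 0.781) and ARPP19 (r = 0.759).

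Markers of the cells that can make or receive these chemokines followed the captures unevenly. Luminal epithelium markers were 4.28 to 5.97 in stroma and 7.53 to 8.49 in epithelium over 11 markers, of which 10 were higher in epithelium. Blood endothelium markers were 4.82 to 6.87 in stroma and 2.33 to 2.76 in epithelium, with 4 of 9 markers higher in stroma in the fit of all probe sets, including the adhesion molecule PECAM1 (7.05 in stroma, 3.11 in epithelium) and the tight junction protein CLDN5 (7.33 in stroma, 4.17 in epithelium). Monocyte and macrophage markers were 4.34 to 5.19 in stroma and 3.51 to 3.86 in epithelium over 9 markers. Their mean was higher in stroma of 6 of 6 cows, by 0.94 on average. Of the 9 markers, 0 passed in the fit of all probe sets. Among the 10000 brightest probe sets, 1 of the 5 tested was higher in stroma, against 4.54% of all tested. AIF1, a calcium-binding protein of macrophages, averaged 6.52 in stroma and 5.78 in epithelium. CD14, the lipopolysaccharide coreceptor, averaged 5.91 in stroma and 5.92 in epithelium. The part of each cell type in the chemokine differences was not tested.

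**Figure D5:**
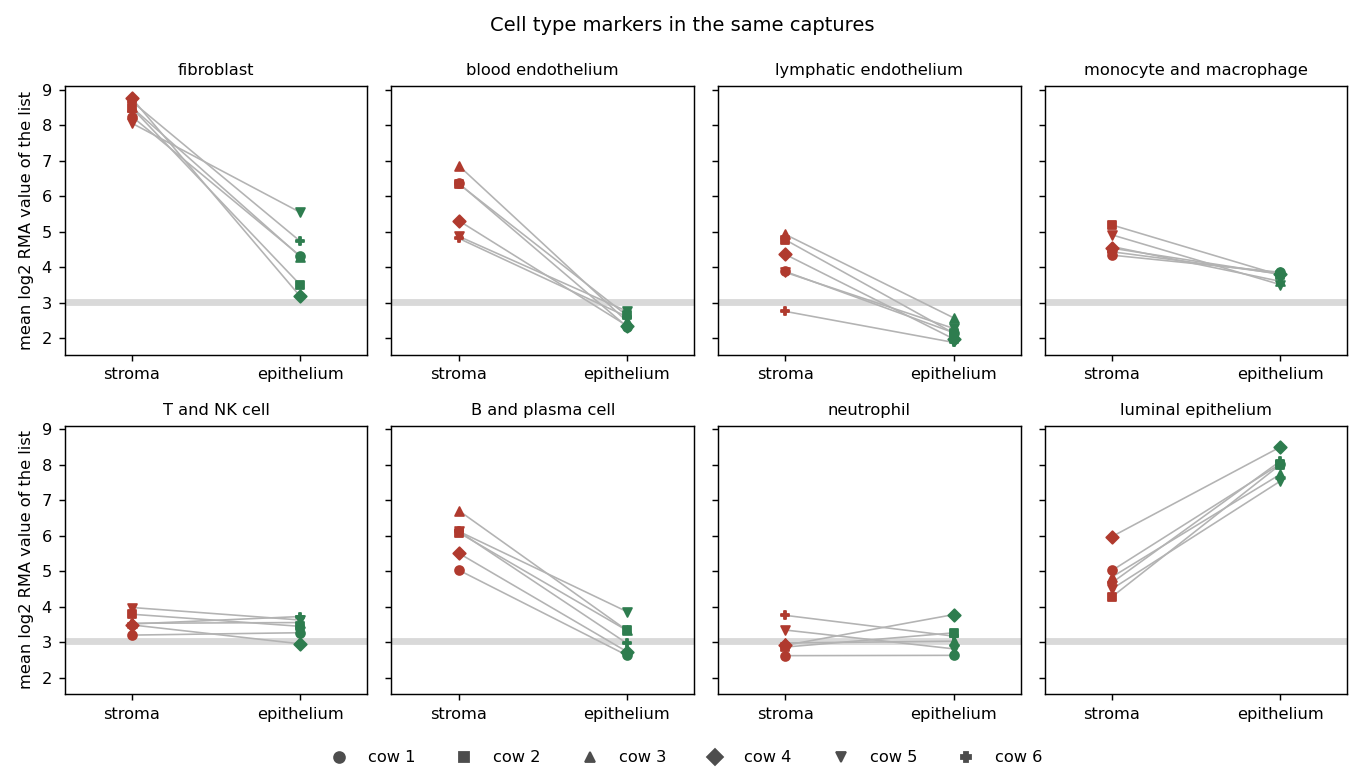
Mean log2 RMA value (vertical axis) of 8 marker lists in stroma and epithelium, with 1 line and marker shape per cow and the array medians as a grey band. Fibroblast, blood endothelium, lymphatic endothelium, macrophage and B and plasma cell means were higher in stroma of all 6 cows, luminal means were lower in stroma of all 6, and T and NK cell and neutrophil means crossed.

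Array quality also moved with tissue. For GAPDH, a housekeeping gene, the 3′ probe set exceeded the 5′ one by 2.31 to 4.75 in stroma and 0.93 to 3.59 in epithelium, with the larger gap in stroma of 5 of 6 cows, and the control RNAs were brighter in stroma of 5 of 6 cows. Their part in the chemokine differences was not tested.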

How the data were processed

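The deposited values are log2 expression values of 12 arrays, made by the authors with RMA as implemented in BioConductor, which includes quantile normalization, on a larger set of arrays that held these 12. Symbols came from the platform annotation, with 13292 probe sets carrying exactly 1 symbol, 86 several and 10638 none, and 112 control probe sets were left out. For arrays, their number limits the precision.

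Differences were fitted in R 4.3.3 with limma 3.58.1 (data.table version 1.17.8), with tissue as the term tested and cow as a fixed block, over the 10000 probe sets with the highest mean (lowest mean 3.57), and p-values were adjusted by Benjamini-Hochberg over all of them, threshold 0.05. CXCL13, CCL21 and other dim genes were read from the fit of all 24016 non-control probe sets. The methods' model had tissue alone, and here that model is an alternative. Both captures come from 1 animal per the design, and same-numbered arrays deviated together only weakly (correlations 0.026 to 0.20). A gene stands by its brightest tested probe set with 1 symbol (5212 genes). Gaps between 2 tissue differences, of a pair of genes or of probe sets, were tested by exact sign flips over the 6 cows. This permutation test can reach a two-sided p of 0.0312 at the lowest. Members and gene lists were chosen with earlier results of these data known. The text names all members, other chemokine genes past the threshold, the members' receptors, the 3 genes most correlated with each tested member, and the 2 brightest markers of each cell type list used beside a member. As alternatives the cow block was dropped or made random, the prior was made robust with a trend on intensity, the filter was dropped, set to the brightest 5000 probe sets or to those above the array median on at least 8 arrays, values were centred or quantile normalized again, probe sets were averaged by gene, and each cow was left out. Leaving out cows 5 and 6 was chosen after seeing the data. RefSeq names and gene order came from ARS-UCD2.0.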

Additional observations from a re-analysis of the deposited data

Results flagged for a closer look

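Each tissue and the within-cow differences of the 12 chemokine probe sets were searched for a single cow far from the other 5, which made 36 groups of 6 values. Of these, 3 held a value that stood apart, and chance gives about 1 in 20 groups. The CXCL12 difference in cow 5 was 2.52, below the next lowest of 4.72. The CXCL2 value in epithelium of cow 1 was 7.21, above the next highest of 4.20. The CXCL13 value in epithelium of cow 2 was 2.08, above the next highest of 1.55, and all of these lie below the array medians.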

How the results depend on the processing

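CXCL12, CCL14 and both CCL2 probe sets passed in every alternative that gave them a value, with adjusted p of at most 0.00393 for CXCL12, 0.0198 for CCL14 and 0.0246 and 0.0392 for CCL2. CXCL8, CXCL2, CCL5, CCL21 and the brighter CXCL16 probe set passed in none. Without the replicate block, CCL8 (1.92, adjusted p = 0.0449) and CXCL13 (1.94, adjusted p = 0.0375) passed and the dimmer CXCL16 probe set (1.50, adjusted p = 0.0693) did not. With the replicate block as a random effect, CCL8 (1.92, adjusted p = 0.0326) and CXCL13 (1.94, adjusted p = 0.0295) passed. The block changed no other call among the 12 chemokine probe sets. CCL8 also passed after centring on the median (2.09, adjusted p = 0.0356) and after quantile normalization again (1.96, adjusted p = 0.0437). The median difference of the tested probe sets was -0.18 as deposited, -0.0081 after centring and -0.14 after quantile normalization again.

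With each cow left out in turn, the count of chemokine probe sets higher in stroma was 4 to 5, that of genes 3 to 4 and that of other chemokine system genes 1 to 3, lowest without cow 2. These counts cover only members bright enough to be tested. Stromal signal helped to bring some of these members in, so no share is read from the counts. Over the same fits, CCL8 was 1.61 to 2.24, the dimmer CXCL16 probe set 1.37 to 1.60 and CCL5 -0.45 to 0.0027. Without cows 5 and 6, CXCL2 turned to -0.36 (adjusted p = 0.823) and the dimmer CXCL16 probe set was 1.20 (adjusted p = 0.141). With the mean over the tested probe sets of a gene, CCL8 passed (1.92, adjusted p = 0.0408) and CXCL16 did not. In that fit 1 other chemokine system gene, ADAM10, was higher in epithelium (-1.46, adjusted p = 0.0300). The second GRO1 probe set, GNAI2 and RGS16 passed in 7 of 15, 11 of 15 and 8 of 13 alternatives. The cause of these changes was not tested. Over all probe sets, 239 were higher in stroma and 274 in epithelium among the brightest 5000. With a cow left out, 331 to 450 of all tested probe sets were higher in stroma and 267 to 406 in epithelium. Signals near the array medians, as of CXCL13 and CCL21, and 6 cows limit what can be called.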
